A study of Mus musculus with 16 samples.

Results

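The 37 genes described here carry out or regulate glycolysis or belong to the cellular response to low oxygen, and were chosen by symbol from the 33072 genes of the count table. They comprise 4 transporters of glucose and lactate, 17 glycolytic enzymes, 3 regulators of glycolytic flux, 4 genes of oxygen sensing and 9 targets of the hypoxia response. Their mRNA levels were measured by poly(A)-selected RNA sequencing in 4T1 and 67NR cells, a pair of mouse mammary carcinoma lines of BALB/c origin that stem from the same spontaneous tumor. 4T1 cells are metastatic and 67NR cells are not, and each kind is represented by 1 cell line, so that metastatic potential and any other difference between the lines cannot be told apart. Each line was grown in medium with serum and treated for 24 h with 15 µM CIX, an inhibitor of cytosolic phospholipase A2 α (cPLA2α), or with its vehicle DMSO. Each of these 4 groups comprised 4 biological replicates. The oxygen tension of the cultures was not varied by the design.

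Glycolysis splits glucose into pyruvate in the cytosol and yields ATP without oxygen, and lactate dehydrogenase then reduces pyruvate to lactate, which leaves the cell through monocarboxylate transporters. Many of its genes are switched on by the hypoxia-inducible factors. These are kept low when oxygen is present, because prolyl hydroxylases mark the α subunit for destruction, and tumor cells often run glycolysis at a high rate even with oxygen at hand. Activity of the pathway is set largely by protein stability and metabolite levels, which were not measured here.

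The samples held between 21715700 and 29450629 estimated counts each. Values are given below as CPM, library-scaled counts with TMM factors over all 16 samples, and in the order of the sample numbers, which are 3, 7, 11 and 15 for 4T1 vehicle, 4, 8, 12 and 16 for 4T1 CIX, 1, 5, 9 and 13 for 67NR vehicle and 2, 6, 10 and 14 for 67NR CIX. Of 13 epithelial markers, 11 had a mean of at least 1 TPM, a level scaled by transcript length, in vehicle-treated 4T1 cells but 2 in vehicle-treated 67NR cells, where Cdh1 and Epcam were near 0, while all 8 mesenchymal markers were present in 67NR. All 4 endothelial and 4 of 6 leukocyte markers were below 1 TPM in every group. The exceptions were Cd68, present in all groups, and Lyz2 in 67NR vehicle samples. The summed leukocyte list, which was mostly Cd68, was at 72 to 118 TPM in 4T1 vehicle and 173 to 264 TPM in 4T1 CIX samples, and at 11.1 to 17.8 TPM and 47.3 to 53.5 TPM in 67NR. The summed mesenchymal list, mostly Vim, was at 1450 to 1830 TPM and 2640 to 3130 TPM in 4T1 vehicle and CIX samples and at 4370 to 5160 TPM and 6770 to 7610 TPM in 67NR. The part of either list in the results below was not tested. Pla2g4a, the gene of the inhibited enzyme, had a mean of 95.0 ± 47.0 CPM (SD, n = 4) in the 4T1 vehicle and 137 ± 35.1 CPM in the 4T1 CIX samples, and did not pass the test (limma-voom adjusted p = 0.131). In 67NR vehicle sample 13 it was at 324 CPM against 60.0 to 81.1 CPM in the other 3. That sample stood apart from its group over all genes, with a chi-square per gene of 92.2 to 107 against the other 3, which differed among themselves by 18.1 to 21.5, and it was the lowest of its group in 43.7% of genes. Pairs within the other groups ranged from 27.1 to 116, the highest between 4T1 vehicle samples 3 and 11. The 4T1 CIX sample 4 also stood apart from its group, with 64.4 to 96.3 against the other 3, which differed among themselves by 27.1 to 45.5. Without sample 13, 19 members were called between the untreated lines (36.6% of all genes), 1 with CIX in 67NR (0.138%) and 1 in the interaction (7.08%).

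Because the genes that follow include known targets of the hypoxia-inducible factors, the sequences in front of their start sites are given for the 4 genes that passed the threshold for a CIX response or for a difference in response, and for Ldha, which lay at the threshold. Each run holds the 250 bases before a RefSeq start site, the more upstream of those listed for Ldha, on the strand of the gene in GRCm38.p6. Capitals mark the letters ACGTG or GCGTG, the core of the hypoxia response element, or their reverse complements CACGT and CACGC. Ankrd37 lies at chr8:45999851-46000100 on the minus strand, and the others lie on the plus strand at chr4:119108495-119108744 (Slc2a1), chr3:104638414-104638663 (Slc16a1), chr7:46845554-46845803 (Ldha) and chr7:110627407-110627656 (Adm).
Ankrd37: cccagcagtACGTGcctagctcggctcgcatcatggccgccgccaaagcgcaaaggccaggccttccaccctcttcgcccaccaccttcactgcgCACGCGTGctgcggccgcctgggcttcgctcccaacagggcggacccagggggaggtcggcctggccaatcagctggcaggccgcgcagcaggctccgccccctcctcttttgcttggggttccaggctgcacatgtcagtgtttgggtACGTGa
Slc2a1: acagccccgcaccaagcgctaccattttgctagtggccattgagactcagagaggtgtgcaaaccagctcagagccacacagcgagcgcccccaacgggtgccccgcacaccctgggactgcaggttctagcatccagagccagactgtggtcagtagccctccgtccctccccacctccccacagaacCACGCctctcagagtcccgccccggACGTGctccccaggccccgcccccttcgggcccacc
Slc16a1: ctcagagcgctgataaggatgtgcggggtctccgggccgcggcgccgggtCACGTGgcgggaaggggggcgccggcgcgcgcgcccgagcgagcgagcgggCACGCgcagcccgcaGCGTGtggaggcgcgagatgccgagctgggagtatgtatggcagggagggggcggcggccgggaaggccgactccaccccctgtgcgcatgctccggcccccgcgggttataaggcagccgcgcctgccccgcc
Ldha: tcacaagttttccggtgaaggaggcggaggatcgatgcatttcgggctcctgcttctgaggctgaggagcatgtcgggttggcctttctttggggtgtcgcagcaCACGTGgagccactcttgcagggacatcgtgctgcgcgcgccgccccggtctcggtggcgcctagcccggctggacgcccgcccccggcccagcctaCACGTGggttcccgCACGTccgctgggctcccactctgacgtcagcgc
Adm: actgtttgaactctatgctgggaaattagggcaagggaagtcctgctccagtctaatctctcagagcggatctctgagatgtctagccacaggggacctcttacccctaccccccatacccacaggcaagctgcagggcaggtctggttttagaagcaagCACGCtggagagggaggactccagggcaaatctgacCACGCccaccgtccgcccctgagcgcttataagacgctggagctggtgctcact

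The run of Ankrd37 held 4 cores, that of Ldha 5, that of Slc16a1 4, and those of Slc2a1 and Adm 2 each, where a CACGTG counts on both strands. Ldha has another RefSeq start site, whose run at chr7:46846832-46847081 held 1 core and is not printed. Of the 37 genes, 33 matched a promoter in the RefSeq table, with 47 start sites in all. A core was present at 38 of these 47 start sites (80.9%), compared with 38.6% of all 32851 promoters of the same length. Some start sites of Aldoa, Eno1 and Pfkm lie so close together that the same core was counted more than once. The promoters of the set were also richer in G and C, with a median of 60.4% against 52.4%. A match describes the letters and is not evidence of binding. Slc2a3, Epas1, Bnip3l and Ndrg1 were not matched.

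In vehicle-treated 4T1 cells the 17 enzymes summed to 18280 ± 2276 TPM (SD, n = 4), and in vehicle-treated 67NR cells to 11650 ± 206 TPM, so that the ranges of 15310 to 20850 TPM and 11430 to 11890 TPM did not overlap. Pkm, the pyruvate kinase of the last ATP-yielding step, had the highest level of the members as quantified in each line, at 4347 ± 284 TPM in 4T1 and 4015 ± 140 TPM in 67NR. It was followed in 4T1 by Aldoa, an aldolase, at 3217 ± 635 TPM, Ldha, the lactate dehydrogenase subunit of glycolytic cells, at 2537 ± 334 TPM, and Gapdh, the dehydrogenase that links the upper and lower steps, at 1511 ± 96.7 TPM. The ranges of Aldoa and Ldha overlapped. In 67NR the order after Pkm was Ldha (1390 ± 113 TPM), Aldoa (1247 ± 206 TPM) and Eno1 (1095 ± 102 TPM), and Ldha and Aldoa differed there by less than their spread. This order rests on how reads were divided among near-identical gene copies. Copies held 70.7% of the joint Gapdh and 62.2% of the joint Eno1 counts in 4T1, and 68.5% and 59.8% in 67NR. Whether Pkm stays first with copies summed was not tested. After Pkm the order changes on the CPM scale. In 4T1 the Gapdh copies alone averaged 2596 CPM, against 2512 CPM for Aldoa and 1838 CPM for Ldha. In 67NR the copies of Gapdh (1592 CPM) and Eno1 (1231 CPM) alone averaged above Ldha (1066 CPM) and Aldoa (1029 CPM). The 3 regulators were far lower, with sums of 88.5 to 128 TPM in 4T1 and 12.9 to 19.8 TPM in 67NR.

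To see how the untreated lines differed, vehicle-treated 4T1 cells were compared with vehicle-treated 67NR cells. Most of the set was higher in the metastatic line. Of the 33 members tested, 20 passed the threshold (limma-voom, Benjamini-Hochberg adjusted p below 0.001), 19 of them higher in 4T1 and 1 higher in 67NR. Of all 11040 genes tested, 40.0% passed, 20.4% higher and 19.6% lower in 4T1. The median log2 fold change of the members was 1.11, compared with -0.01 over all genes tested, and 27 of the 33 were higher in 4T1. At an adjusted p below 0.05, 25 members passed against 67.4% of all genes, 22 of them higher in 4T1.

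**Figure D1:**
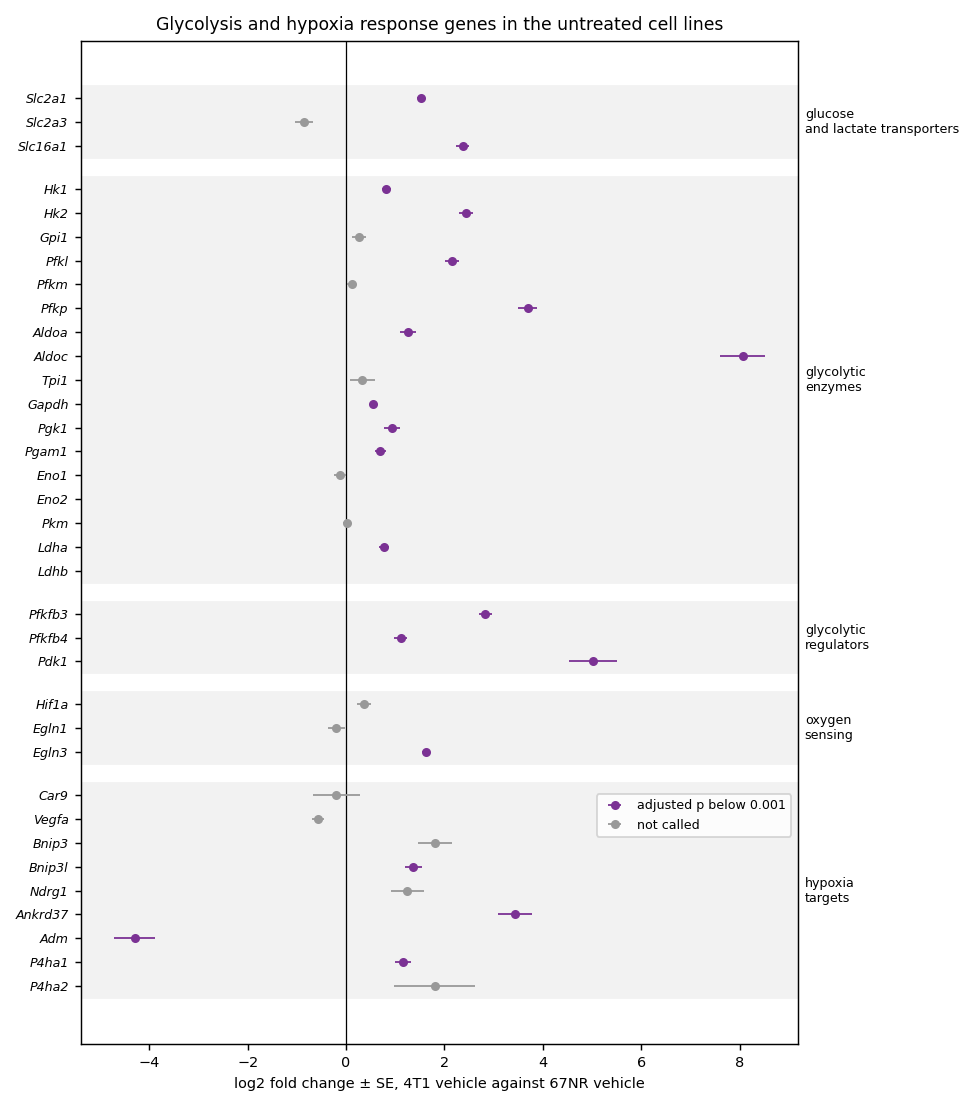
Log2 fold change ± SE (horizontal axis) of each tested member between vehicle-treated 4T1 and 67NR cells, n = 4 per group, ordered by role. Points right of the line at 0 are higher in 4T1, and purple points passed an adjusted p below 0.001, which 20 of 33 members did; Eno2 and Ldhb have no point because the filter on low values left them out.

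Of the transporters, Slc2a1, the widespread glucose transporter GLUT1, was at 321, 317, 320 and 308 CPM in 4T1 and at 105, 111, 122 and 102 CPM in 67NR. The groups were far apart, and its log2 fold change was 1.52 ± 0.07 (SE, adjusted p = 3.24e-07). Slc16a1, the lactate transporter MCT1, was higher by 2.37 ± 0.13 on the log2 scale (adjusted p = 6.65e-07). Slc2a3, the high-affinity glucose transporter GLUT3, was lower in 4T1 by the point estimate (log2 fold change -0.85 ± 0.18) and was not called, with an adjusted p of 0.00257. Slc2a1 made up 93.7 ± 1.58% of the summed TPM of both glucose transporters in 4T1 and 74.6 ± 3.62% in 67NR. Slc16a3, which encodes the lactate exporter MCT4, was left out by the filter on low values, at 0.98 CPM in 4T1 and 0.70 CPM in 67NR (exact permutation test, two-sided p = 0.829, smallest possible 0.0286).

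Of the 15 enzymes tested, 10 passed, all higher in 4T1, and the median log2 fold change was 0.76. Aldoc, the brain-type aldolase, had the largest difference among the enzymes tested. It was at 138, 190, 241 and 188 CPM in the 4T1 samples and at 0.53, 0.53, 1.62 and 0.41 CPM in the 67NR samples, a log2 fold change of 8.06 ± 0.46 (adjusted p = 7.53e-07). The gene was thus close to absent in 67NR. Pfkp, the platelet-type phosphofructokinase, was at 180, 295, 306 and 260 CPM in 4T1 and at 20.7, 24.2, 16.99 and 17.3 CPM in 67NR, with a log2 fold change of 3.69 ± 0.20 (adjusted p = 5.68e-07). Hk2, the hexokinase typical of tumors and insulin-sensitive tissue, was at 165, 158, 132 and 173 CPM in 4T1 and at 36.7, 25.1, 26.4 and 27.2 CPM in 67NR, and was higher by 2.44 ± 0.14 (adjusted p = 8.08e-07). For Aldoc, Pfkp and Hk2 the lines did not overlap.

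The others that passed were Pfkl (log2 fold change 2.15), Aldoa (1.26), Pgk1 (0.93), Hk1 (0.82), Ldha (0.76), Pgam1 (0.70) and Gapdh (0.55). Pgk1 was called in 1 and Pgam1 in 2 of the 8 fits that left out 1 sample, with an adjusted p of at most 0.00318 and 0.00198. Gpi1, Pfkm, Tpi1, Eno1 and Pkm were not called, with log2 fold changes between -0.13 and 0.33. Eno2, the neuronal enolase, was left out by the filter because it was near 0 in all samples of 1 line. Its levels were 45.1, 129, 142 and 114 CPM in 4T1 and 0.37, 0.12, 0.50 and 0.87 CPM in 67NR, and the groups did not overlap (exact permutation test, two-sided p = 0.0286, the smallest possible). Ldhb, the subunit that favors lactate oxidation, was at 0.72 ± 0.42 CPM in 4T1 and 0.09 ± 0.12 CPM in 67NR (exact two-sided p = 0.0286), and Ldha accounted for nearly all lactate dehydrogenase mRNA in every group.

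All 3 regulators were higher in 4T1. Pdk1, the kinase that shuts off pyruvate dehydrogenase and thereby the entry of pyruvate into mitochondria, was at 56.2, 99.9, 120 and 93.6 CPM in 4T1 and at 1.34, 3.67, 6.45 and 1.66 CPM in 67NR. Even the lowest 4T1 sample was above the highest 67NR sample, and the log2 fold change was 5.02 ± 0.48 (adjusted p = 1.64e-05). Pfkfb3, whose product makes the activator of phosphofructokinase, was at 37.3, 33.4, 35.2 and 37.1 CPM in 4T1 and at 6.04, 5.17, 4.37 and 4.49 CPM in 67NR. The lines were far apart, and it had a log2 fold change of 2.83 ± 0.13 (adjusted p = 2.88e-07), while its relative Pfkfb4 had one of 1.11 ± 0.14 (adjusted p = 7.69e-05).

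Of the genes of oxygen sensing, Hif1a, the oxygen-labile α subunit of the factor, was at 199, 187, 140 and 180 CPM in 4T1 and at 145, 118, 162 and 118 CPM in 67NR. These ranges overlapped, and the difference was not called (log2 fold change 0.37 ± 0.14, adjusted p = 0.0439). Epas1, which encodes HIF2α, had at most 5.2 estimated counts in any vehicle sample. Egln3, a prolyl hydroxylase that is itself a hypoxia target, was at 175, 162, 161 and 158 CPM in 4T1 and at 56.0, 54.0, 56.9 and 45.7 CPM in 67NR, and was higher by 1.62 ± 0.08 (adjusted p = 5.04e-07). Egln1, the main oxygen sensor of most cells, was not called (-0.20 ± 0.17, adjusted p = 0.316).

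Of the 9 hypoxia targets 4 passed (44.4%, near the 40.0% of all genes), 3 higher in 4T1 and 1 higher in 67NR. Ankrd37, a small ankyrin repeat protein gene, was at 14.6, 31.4, 28.9 and 26.2 CPM in 4T1 and at 2.31, 2.53, 2.14 and 1.94 CPM in 67NR (log2 fold change 3.43 ± 0.34, adjusted p = 2.19e-05). Bnip3l, which acts in mitophagy, was higher in 4T1 by 1.37 ± 0.18 (adjusted p = 0.000115), and P4ha1, a collagen prolyl hydroxylase subunit, by 1.16 ± 0.16 (adjusted p = 0.000193). Adm, the gene of the vasodilator peptide adrenomedullin, went the other way. It was at 0.68, 5.20, 3.34 and 3.04 CPM in 4T1 and at 46.2, 53.2, 54.4 and 40.9 CPM in 67NR, a log2 fold change of -4.30 ± 0.42 (adjusted p = 1.90e-05), and it was the only member that limma-voom called higher in 67NR.

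Vegfa, the main angiogenic growth factor, was at 72.6, 79.8, 86.2 and 98.5 CPM in 4T1 and at 136, 103, 132 and 126 CPM in 67NR. All 67NR samples were above all 4T1 samples, but the log2 fold change of -0.57 ± 0.12 was not called (adjusted p = 0.00243). Bnip3, the mitophagy receptor related to Bnip3l, was at 50.8, 80.9, 168 and 84.2 CPM in 4T1 and at 23.0, 20.5, 23.5 and 33.4 CPM in 67NR, with a log2 fold change of 1.81 ± 0.35 and an adjusted p of 0.00134, just above the threshold. Ndrg1 (1.24), P4ha2 (1.80) and Car9 (-0.20) were not called in limma-voom. DESeq2 called 24 of the 33 members (52.0% of all genes), 21 higher and 3 lower in 4T1, among them Ndrg1 and Bnip3 as higher and Vegfa and Slc2a3 as lower. Car9, the tumor carbonic anhydrase often used as a mark of hypoxia, was at 3.39 ± 1.72 CPM in 4T1 and 3.57 ± 1.37 CPM in 67NR.

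The level of these targets varied widely among the 4T1 vehicle samples. Sample 3 was the lowest of its group in all 9 targets and in 24 of the 35 members tested in 4T1, whereas it was lowest in 32.2% of all genes with at least 1 TPM in each sample of the group. Sample 11 was the highest in 5 of the 9 targets and in 19 of the 35 members, against 27.5% of all genes. Ndrg1, a stress-induced gene, was at 310, 670, 1108 and 547 CPM in these samples, and P4ha2 at 12.8, 30.1, 98.6 and 15.9 CPM. With samples 3 and 11 both left out, an alternative chosen after seeing the data, 21 members passed in the comparison of the lines, against 32.8% of all genes in that fit.

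**Figure D2:**
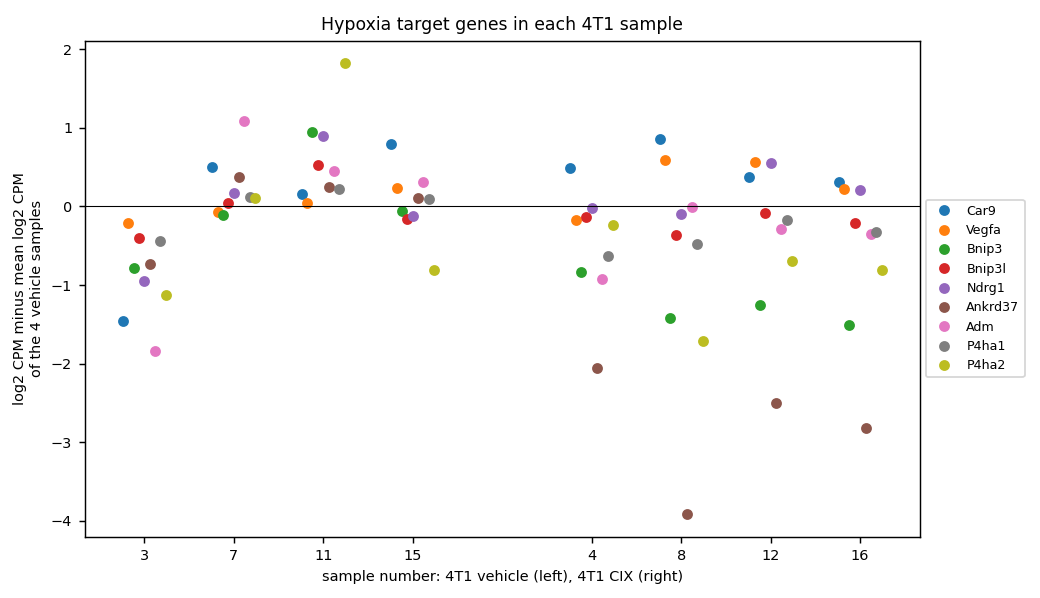
Log2 CPM of the 9 hypoxia target genes in each 4T1 sample, minus the mean log2 CPM of the 4 vehicle samples (vertical axis), with vehicle samples on the left and CIX samples on the right. Vehicle sample 3 holds the lowest vehicle value of each gene, and Ankrd37 (brown) is lower in every CIX sample than in any vehicle sample.

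CIX was compared with vehicle in 4T1 cells to ask which of these genes responded in the metastatic line. Of the 35 members tested, 1 passed the threshold (2.86%), and it was lower. Of all 11659 genes tested, 9.34% passed, 5.35% higher and 3.99% lower. Higher genes made up 57.3% of these calls, and 45.7% on the log2(TPM + 1) scale. The median log2 fold change of the members was -0.38, compared with -0.01 over all genes, and 62.9% of them were lower with CIX, against 50.4% of all genes. At an adjusted p below 0.05, 16 members passed (45.7%), 14 lower and 2 higher, compared with 42.7% of all genes. The share of members past either threshold was thus below or near that of all genes, and the direction of those past the looser one was mostly down.

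**Figure D3:**
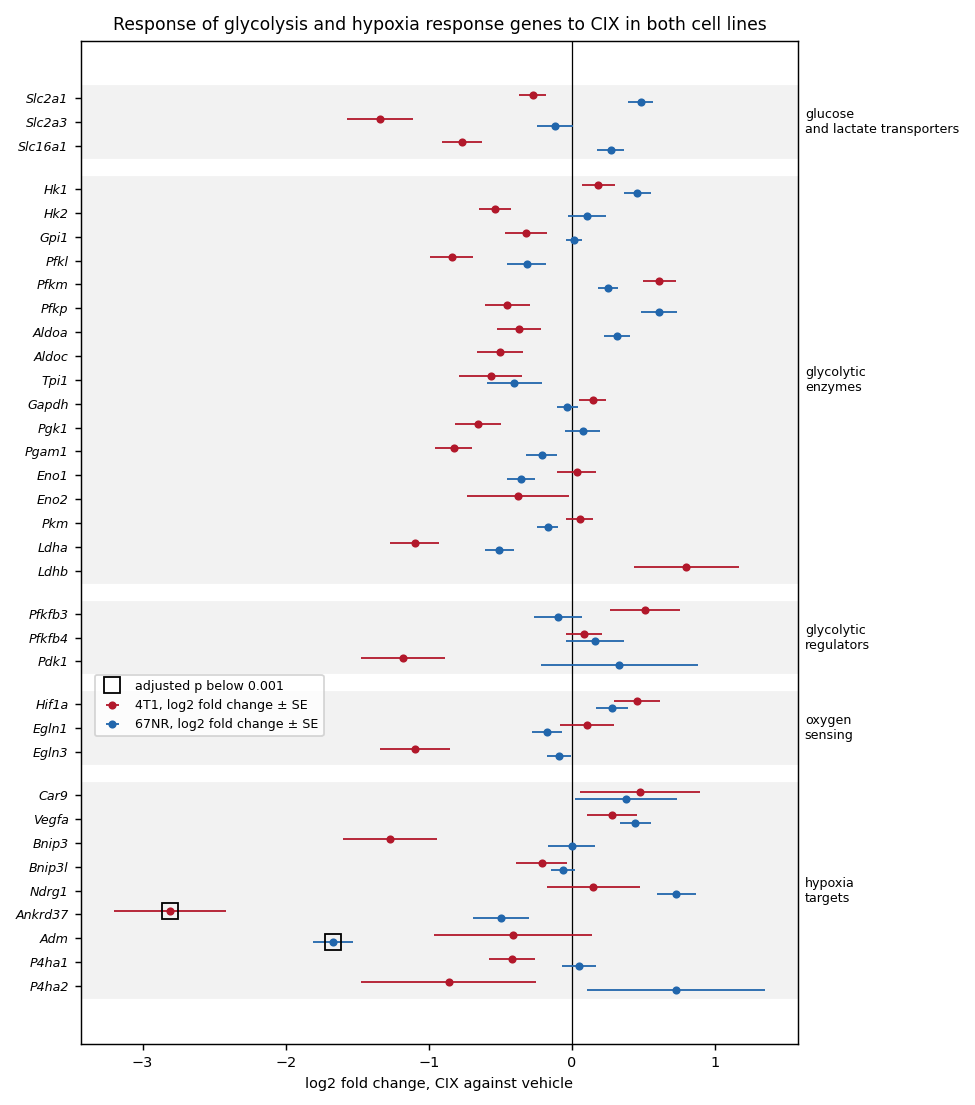
Log2 fold change ± SE (horizontal axis) of each tested member with CIX against vehicle in 4T1 (red) and 67NR (blue), n = 4 per group, ordered by role. Boxes mark the calls at an adjusted p below 0.001, Ankrd37 in 4T1 and Adm in 67NR; Aldoc, Eno2 and Ldhb have no value in 67NR because the filter left them out.

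Ankrd37 was the called gene. It was at 14.6, 31.4, 28.9 and 26.2 CPM with vehicle and at 5.86, 1.61, 4.31 and 3.45 CPM with CIX, and the groups did not overlap. The log2 fold change was -2.81 ± 0.39, a 7.00-fold lower level (adjusted p = 0.000605). Its mean of 3.81 ± 1.77 CPM with CIX compares with 2.23 ± 0.25 CPM in 67NR vehicle samples. It kept its call in the fit without vehicle sample 3 and lost it when any of the other 7 samples was left out, with a log2 fold change from -3.07 to -2.47 and an adjusted p of at most 0.00346. The number of calls over all genes also dropped in these smaller fits.

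Among the transporters, Slc2a3 was at 18.2, 34.5, 25.2 and 23.4 CPM with vehicle and at 7.49, 10.7, 12.7 and 9.09 CPM with CIX. No CIX sample reached a vehicle sample, but the log2 fold change of -1.34 ± 0.23 was not called (adjusted p = 0.00174). Slc16a1 had a log2 fold change of -0.77 ± 0.14 (adjusted p = 0.00211) and Slc2a1 one of -0.28 ± 0.10 (adjusted p = 0.0419). For Slc2a1, the CIX samples were at 308, 234, 255 and 267 CPM. The highest of them just exceeded the lowest vehicle sample. None of the 3 transporters passed in limma-voom, 3 had an unadjusted p below 0.05, and DESeq2 called 2 of them. Over all genes, 42.7% had an adjusted p below 0.05, hence at least as many an unadjusted one, and DESeq2 called 26.6%. Slc16a3 was at 0.12 CPM with CIX and 0.98 CPM with vehicle (exact permutation test, two-sided p = 0.0571).

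None of the 17 enzymes passed in limma-voom, while 8 had an adjusted p below 0.05 (47.1%, near the 42.7% of all genes). An unadjusted p below 0.05 was found for 10, and DESeq2 called 6, against 26.6% of all genes. Ldha came closest, with an adjusted p that rounded to 0.001 but lay just above it. It was at 1543, 1887, 2213 and 1709 CPM with vehicle and at 1194, 667, 825 and 830 CPM with CIX, and the groups did not overlap (log2 fold change -1.10 ± 0.17, 2.14-fold lower). Pgam1, a phosphoglycerate mutase, followed (-0.83 ± 0.13, adjusted p = 0.00111), then Pfkl, the liver-type phosphofructokinase (-0.84 ± 0.15, adjusted p = 0.00192). Hk2 was at 111, 109, 97.5 and 118 CPM with CIX, below all vehicle samples (-0.54 ± 0.11, adjusted p = 0.0043). Pgk1 (-0.66), Aldoc (-0.50) and Pfkp (-0.45) had an adjusted p between 0.00992 and 0.0421.

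One enzyme below 0.05 pointed up. Pfkm, the muscle-type phosphofructokinase, was at 84.9 ± 9.78 CPM with vehicle and 131 ± 12.9 CPM with CIX (0.61 ± 0.11, adjusted p = 0.0025). Its share of the summed TPM of the 3 phosphofructokinase genes was 5.95 ± 0.78% with vehicle and 14.1 ± 2.25% with CIX, while that of Pfkl was 76.5 ± 0.75% and 66.1 ± 4.33%. The remaining enzymes had an adjusted p above 0.05. Pkm (0.05), Eno1 (0.03) and Gapdh (0.14), the most abundant enzyme genes beside Aldoa, Ldha and Tpi1, had log2 fold changes near 0. Aldoa (-0.37), Tpi1 (-0.57), Gpi1 (-0.32) and Eno2 (-0.38) were lower and Hk1 (0.18) and Ldhb (0.80) higher by the point estimates.

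None of the 3 regulators was called in limma-voom. An unadjusted p below 0.05 was found for 1 (at least 42.7% of all genes), and DESeq2 called Pdk1 (26.6% of all genes). Pdk1 was at 65.4, 27.1, 34.9 and 40.4 CPM with CIX against 56.2 to 120 CPM with vehicle. CIX sample 4 lay above vehicle sample 3, and the log2 fold change of -1.18 ± 0.29 was not called (adjusted p = 0.00989). Pfkfb3 was at 29.1, 69.8, 56.9 and 61.0 CPM with CIX and at 37.3, 33.4, 35.2 and 37.1 CPM with vehicle, and only CIX sample 4 was not above the vehicle samples (0.51 ± 0.24, adjusted p = 0.12). Without that sample its log2 fold change was 0.77 and it was called (adjusted p = 0.000935). Pfkfb4 differed little (0.08 ± 0.12, adjusted p = 0.608).

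CIX sample 4 also decided Egln3. This gene was at 144, 62.9, 59.0 and 67.8 CPM with CIX, so that sample 4 stood far above the other 3 and near the vehicle samples. The log2 fold change was -1.10 ± 0.24 over all samples (adjusted p = 0.00612) and -1.41 without sample 4 (adjusted p = 0.000107). Hif1a was at 207, 268, 206 and 308 CPM with CIX, each above all vehicle samples, and was not called (0.46 ± 0.16, adjusted p = 0.0443). Egln1 had a log2 fold change of 0.11 ± 0.19 (adjusted p = 0.675). None of the 3 genes of oxygen sensing tested was called in limma-voom. An unadjusted p below 0.05 was found for 2 (at least 42.7% of all genes), and DESeq2 called Egln3 (26.6% of all genes).

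Of the other hypoxia targets, Bnip3 was at 48.9, 32.7, 36.6 and 30.7 CPM with CIX, below all vehicle samples, with a log2 fold change of -1.27 ± 0.33 and no call in limma-voom (adjusted p = 0.0121). DESeq2 called it (adjusted p = 7.58e-05), and of the other targets only Ankrd37. The share of Bnip3 in the summed TPM of Bnip3 and Bnip3l was 41.4 ± 5.77% with vehicle and 25.4 ± 3.44% with CIX. Vegfa was at 74.2, 126, 123 and 97.5 CPM with CIX, within and above the vehicle samples (0.28 ± 0.18, adjusted p = 0.228). Bnip3l (-0.21), Adm (-0.41), P4ha1 (-0.42) and P4ha2 (-0.86) were lower and Ndrg1 (0.15) and Car9 (0.48) higher by the point estimates, with adjusted p-values from 0.0564 to 0.74. The point estimates of the 9 targets thus had both signs.

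The number of members called with CIX in 4T1 depended on the test. DESeq2 called 12 of 35 (26.6% of all genes), 11 of them lower, and edgeR's quasi-likelihood test called 1. Without CIX sample 4, 5 members were called, against 8.36% of all genes. None was called in 6 of the other 7 fits that left out 1 sample, where 2.31 to 5.05% of all genes passed. In these fits at least 14 members had an unadjusted p below 0.05. The share of all genes at that level was not computed for them, so this count does not set the members apart.

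**Figure D4:**
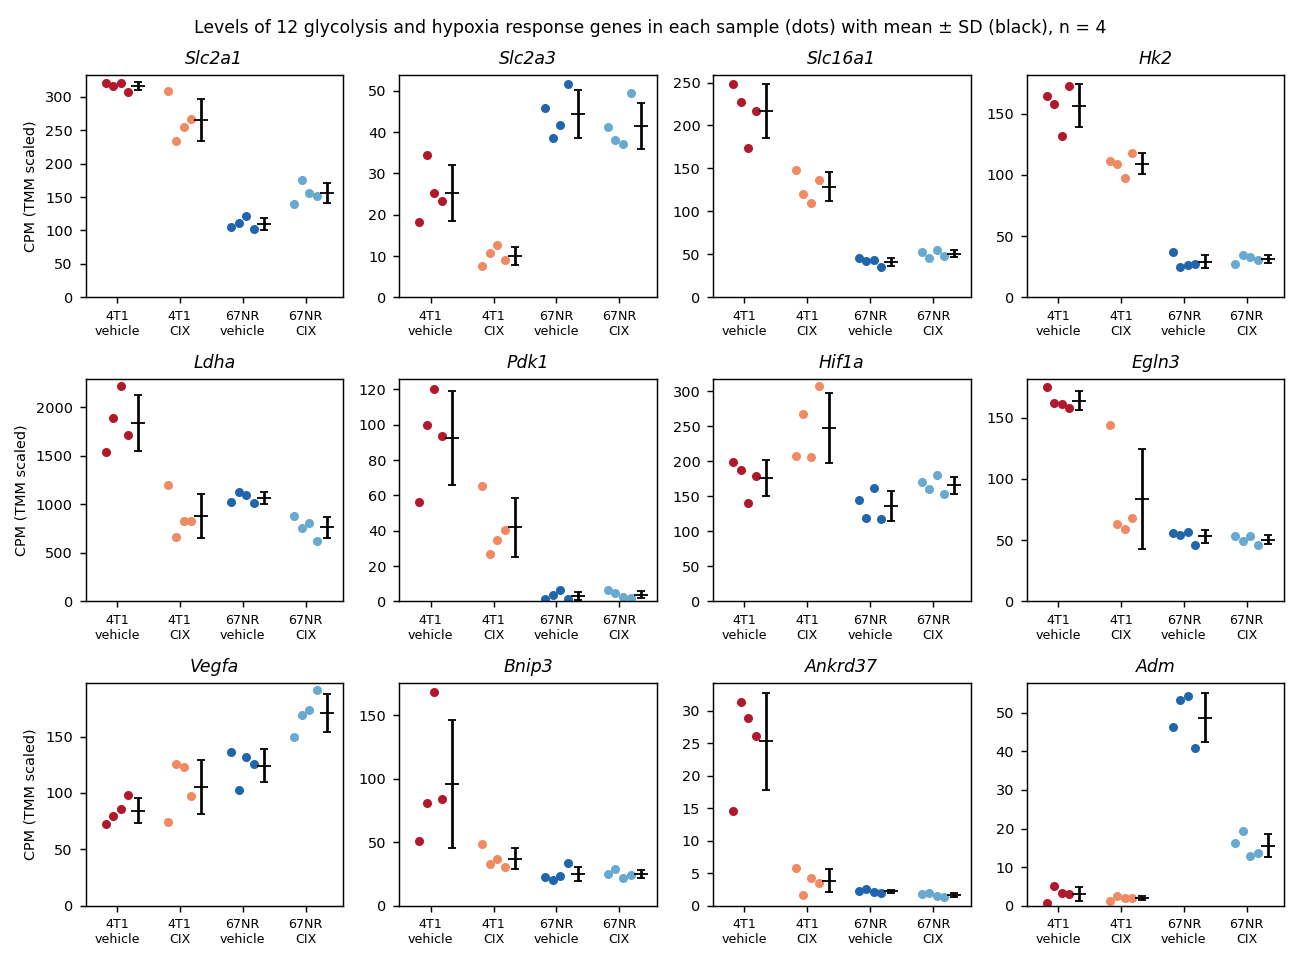
CPM (vertical axis, linear from 0) of 12 members in each of the 16 samples, as dots by group, with the mean ± SD of each group (n = 4) in black. Ankrd37 and Slc2a3 are lower in every CIX-treated 4T1 sample than in any vehicle sample, Egln3 has 1 high CIX sample at 144 CPM, and Adm is high in 67NR and lower there with CIX.

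The same comparison was made in 67NR cells. Of the 32 members tested, 1 passed (3.12%), and it was lower, compared with 0.389% of all 11560 genes, 0.182% higher and 0.208% lower. The median log2 fold change was 0.03, against -0.01 over all genes. At an adjusted p below 0.05, 10 members passed (31.2%), 7 higher and 3 lower, compared with 17.8% of all genes. DESeq2 called 6 at the stricter threshold (8.98% of all genes), of which Slc2a1, Ndrg1, Hk1 and Pfkp were higher and Adm and Ldha lower.

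Adm was the called gene. It was at 46.2, 53.2, 54.4 and 40.9 CPM with vehicle and at 16.4, 19.3, 12.9 and 13.7 CPM with CIX, and the groups were far apart (log2 fold change -1.67 ± 0.14, 3.18-fold lower, adjusted p = 0.000529). The call held without vehicle sample 13 (adjusted p = 0.000917), the sample that stood apart, and was lost when any of the other 7 samples was left out, with a highest adjusted p of 0.0036, in fits that called from 0 to 75 genes in all. In 4T1, where the gene was low, its log2 fold change with CIX was -0.41 ± 0.55 (adjusted p = 0.575). This value ranged from -1.01 without 4T1 vehicle sample 3 to -0.06 without 4T1 vehicle sample 7.

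Slc2a1 was at 139, 176, 156 and 152 CPM with CIX in 67NR, above all vehicle samples, but its log2 fold change of 0.48 ± 0.09 was not called (adjusted p = 0.00747). The other members higher at an adjusted p below 0.05 were Ndrg1 (0.73 ± 0.14, adjusted p = 0.00867), Pfkp (0.61), Hk1 (0.46), Vegfa (0.44), Aldoa (0.32) and Pfkm (0.25). Vegfa was at 150, 169, 173 and 192 CPM with CIX, above all vehicle samples (adjusted p = 0.023). Lower at that level, beside Adm, were Ldha and Eno1 (-0.36). Ldha was at 877, 753, 808 and 620 CPM with CIX and at 1023, 1131, 1099 and 1010 CPM with vehicle, and the groups did not overlap (-0.51 ± 0.10, adjusted p = 0.0123).

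Among the genes given by sample throughout, 5 showed overlapping groups in 67NR. Hk2 was at 27.2, 34.5, 33.1 and 30.6 CPM with CIX (0.11 ± 0.13, adjusted p = 0.628). Pdk1 was at 6.32, 4.61, 2.26 and 1.96 CPM (0.33 ± 0.55, adjusted p = 0.724). Hif1a was at 171, 160, 180 and 153 CPM (0.28 ± 0.11, adjusted p = 0.113). Egln3 was at 53.2, 49.3, 53.2 and 46.1 CPM (-0.09 ± 0.08, adjusted p = 0.497), and Bnip3 at 24.8, 29.2, 21.8 and 24.1 CPM (-0.003 ± 0.16, adjusted p = 0.993).

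The remaining members tested in 67NR had an adjusted p above 0.05. Of these, Slc2a3, Pfkl, Tpi1, Gapdh, Pgam1, Pkm, Pfkfb3, Egln1, Bnip3l and Ankrd37 were lower by the point estimate, from -0.50 for Ankrd37 to -0.03 for Gapdh. Slc16a1, Gpi1, Pgk1, Pfkfb4, Car9, P4ha1 and P4ha2 were higher, from 0.02 for Gpi1 to 0.73 for P4ha2. The 5 members left out by the filter, Slc16a3, Aldoc, Eno2, Ldhb and Epas1, were all below 1 CPM on average in both groups, with exact two-sided permutation p-values from 0.743 to 0.943.

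Whether the response differed between the lines was tested with an interaction term over all 16 samples. Of 35 members tested, 2 passed (5.71%), both with the lower response in 4T1, compared with 7.86% of all 12605 genes, 4.81% with the higher and 3.05% with the lower response in 4T1. The higher ones were 61.2% of these calls, and 47.3% on the log2(TPM + 1) scale. At an adjusted p below 0.05, 12 passed, all with the lower response in 4T1, against 29.4% of all genes. The median difference of the log2 fold changes, 4T1 minus 67NR, was -0.47, compared with -0.02 over all genes. Aldoc (-0.88 ± 0.59), Eno2 (-0.30 ± 1.35) and Ldhb (0.35 ± 1.00) entered this count and median only through their level in 4T1, since they were below 1 CPM on average in both 67NR groups. None of them was called. The median was -0.29 without 4T1 vehicle sample 11 and -0.62 without 4T1 vehicle sample 3.

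Both called members were transporters. Slc2a1 had a difference of -0.76 ± 0.13 (adjusted p = 0.000449). By the point estimates given above, its level was lower with CIX in 4T1 and higher in 67NR, and neither response was called. Slc16a1 was at 249, 228, 174 and 217 CPM with vehicle and 149, 120, 110 and 137 CPM with CIX in 4T1. In 67NR it was at 45.6, 42.0, 43.0 and 35.0 CPM with vehicle and 53.1, 46.0, 55.1 and 48.4 CPM with CIX. The CIX samples thus lay below all vehicle samples in 4T1 and, by a narrow margin, above all vehicle samples in 67NR. The difference of the responses was -1.04 ± 0.18 (adjusted p = 0.000522). Neither response of Slc16a1 was called within its line, with an adjusted p of 0.00211 in 4T1 and 0.0789 in 67NR (0.27 ± 0.09). Each of these calls held in 6 of the 16 fits that left out 1 sample. For Slc2a1 these were the fits without 4T1 samples 3, 4 or 15 or 67NR samples 2, 9 or 13, and for Slc16a1 those without 4T1 samples 3, 4, 11 or 16 or 67NR samples 1 or 6. In the others the adjusted p reached at most 0.00135 for Slc2a1 and 0.00149 for Slc16a1. Without any filter on low values neither passed.

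Next in order were Slc2a3 (-1.22 ± 0.26, adjusted p = 0.00275), Pfkp (-1.06 ± 0.23, adjusted p = 0.00295), Ankrd37 (-2.31 ± 0.60, adjusted p = 0.00923) and Hk2 (-0.65 ± 0.18, adjusted p = 0.0113). Aldoa, Egln3, Pgam1, Pgk1, Bnip3 and Ldha also had an adjusted p between 0.016 and 0.0479, with differences from -1.27 to -0.60. DESeq2 called 5 members (15.7% of all genes), namely both transporters above, Slc2a3, Pfkp and Ankrd37. In limma-voom without 4T1 vehicle sample 3, 6 of the 35 members passed, namely Slc2a1, Slc16a1, Slc2a3, Pfkp, Aldoa and Ankrd37, against 8.30% of all genes. For Adm the difference was 1.26 ± 0.54 (adjusted p = 0.0962), and 0.65 without 4T1 vehicle sample 3, so a different response of Adm in the lines was not shown.

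**Figure D5:**
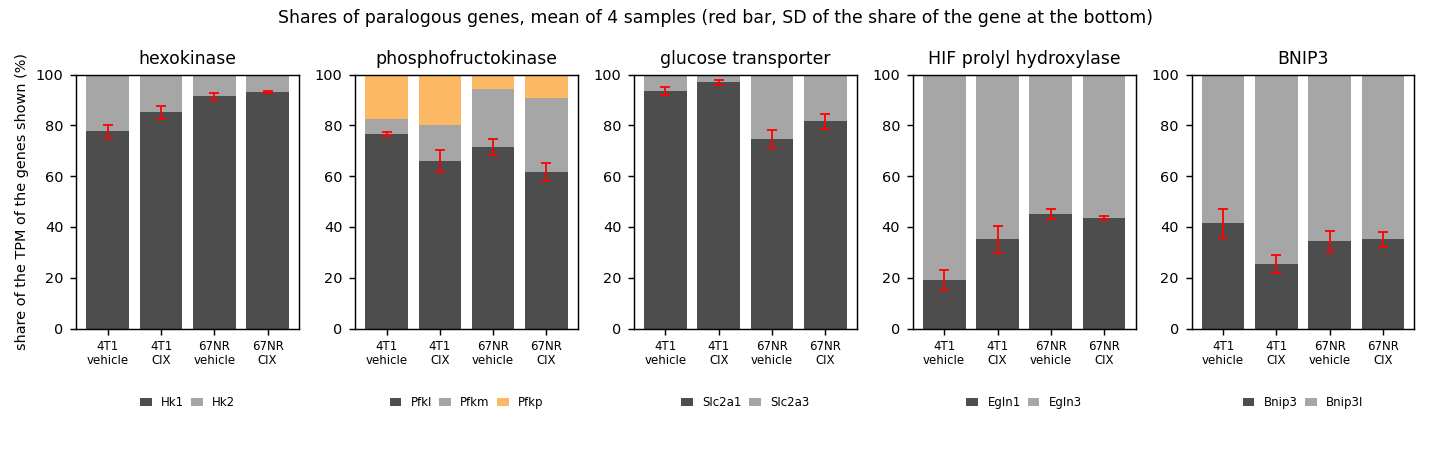
Share of each gene in the summed TPM of the paralogs shown (vertical axis, percent, mean of 4 samples), for 5 gene families in the 4 groups, with the SD of the lowest segment in red. Pfkm takes 5.95% of the phosphofructokinase TPM in 4T1 vehicle and 14.1% in 4T1 CIX samples, and Egln1 takes 19.2% and 35.1% of the TPM of Egln1 and Egln3.

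Several members have near-identical copies elsewhere in the genome, among which the quantification has to divide reads. Of the 31-base words in the transcripts of Pgk1, 54.7% also occur in other genes, and for Pgam1 (37.1%), Pkm (34.7%), Ldhb (33.0%), Eno1 (28.5%) and Gapdh (27.2%) the share was also high. The 13 copies that share at least 20% of the words of Gapdh, mostly pseudogenes, held 70.7% of their joint counts in 4T1 vehicle samples, and the 2 copies of Eno1 held 62.2%. The levels of these genes on their own are therefore uncertain. With such copies summed, the log2 fold changes with CIX in 4T1 were -0.59 for Pgk1, -0.85 for Pgam1, 0.14 for Gapdh and 0.00 for Eno1. They were close to those of the genes alone. Ldha had no copy with that share of words, and its log2 fold change stayed at -1.10. It passed in that fit, over 11651 genes instead of 11659, with an adjusted p of 0.000998. For Pgam1, whose copy was summed, the adjusted p was 0.00149.

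The surrounding pathway was followed in 81 further genes of 4 lists. In 4T1 with CIX, 6 of the 63 tested were called (9.52%), 3 higher and 3 lower, a share near the 9.34% of all genes. The rises were in Ldhd, a dehydrogenase of D-lactate (2.22 ± 0.30, from 4.26 to 20.4 CPM on average), Plod1, a collagen lysyl hydroxylase (1.03 ± 0.14), and Dlat, a core subunit of pyruvate dehydrogenase (0.75 ± 0.10). The falls were in Pgam2, the muscle-type phosphoglycerate mutase (-2.16 ± 0.24), Ak4, a mitochondrial adenylate kinase and hypoxia target (-1.50 ± 0.23), and Pdp2, a phosphatase that activates pyruvate dehydrogenase (-0.86 ± 0.11). By list, 2 of 14 other glycolysis genes, 2 of 11 genes of pyruvate entry into mitochondria and 2 of 27 other hypoxia targets passed. Of the 11 other oxygen sensing genes none passed in limma-voom. Of these, 5 had an unadjusted p below 0.05 (at least 42.7% of all genes), and DESeq2 called 3 (26.6% of all genes).

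In 67NR, 1 of 61 of these genes was called (1.64%), compared with 0.389% of all genes. Hmox1, the heme oxygenase, rose from 11.0 ± 1.17 to 35.0 ± 4.84 CPM (1.64 ± 0.13, adjusted p = 0.000411). The 4T1 means were 86.6 CPM (vehicle) and 42.3 CPM (CIX, adjusted p = 0.00288), and the difference of the responses was -2.68 ± 0.27 (adjusted p = 8.23e-06). It was one of 7 of 68 genes called in that test (10.3%, against 7.86% of all genes). Of these 7 called genes, Plod2 (-1.84) and Pgam2 (-1.94) were the others with the lowest response in 4T1 relative to 67NR. Eno3 (1.13) and Plod1 (1.07) were those with the highest.

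Between the untreated lines, 27 of the 57 tested were called (47.4%), 21 higher in 4T1 and 6 higher in 67NR, compared with 40.0% of all genes, 20.4% higher and 19.6% lower in 4T1. Of the 32 other hypoxia targets 22 were tested, and 10 of these were called higher in 4T1. Those tested were led by Hmox1 (2.93 ± 0.21), Ero1l, an oxidase of protein folding (2.87 ± 0.26), and Ccng2, a cyclin of quiescent cells (2.04 ± 0.28). Of the 57 genes tested, the most in favor of 67NR were Plod1 (-2.03 ± 0.12), Mpc1 (-1.91 ± 0.21) and Pdk2 (-1.63 ± 0.19). Mpc1 encodes a subunit of the mitochondrial pyruvate carrier, and Pdk2 is a relative of Pdk1. The filter on low values left out genes with larger differences of their means in either direction. For example, Arnt2 averaged 0.433 CPM in 4T1 and 59.5 CPM in 67NR vehicle samples, and Car12 79.8 and 0.0559 CPM. Of the 11 genes of pyruvate entry into mitochondria, 8 were called, 5 higher in 4T1 and 3 higher in 67NR, and of the other glycolysis and oxygen sensing genes 5 of 13 and 3 of 11.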

How the data were processed

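RNA of 4T1 and 67NR cells was sequenced as single-end reads from stranded poly(A) libraries. According to the study's methods, the authors ran salmon (0.12 in the submitters' processing notes) on the Ensembl GRCm38 mouse reference and used tximport to obtain gene values. The notes name GRCh38, a human build, but the gene identifiers are those of mouse. The values deposited by the authors are estimated counts that were not normalized. The tximport setting is not given in the sources used here, and 0% of the values above 0 were whole within 1e-09, so the counts may have been scaled. All 16 columns were mapped to samples by their numbers. The least different replicate pair had a chi-square of 18.1 per gene, so all samples were kept as separate.

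Estimated counts were rounded. TPM was approximated from mean transcript lengths of GENCODE (32832 of 33072 genes had a name and length), and genes below 1 TPM in more than 3 samples of a comparison were left out, which also removes a gene that is near 0 in all 4 samples of 1 line. The interaction kept genes that passed in either line. Main fits used limma-voom and TMM factors (limma 3.58.1, edgeR 4.0.16, R 4.3.3) over all genes, called at an adjusted p below 0.001 as in the study. Alternatives were edgeR's quasi-likelihood test, DESeq2 1.42.0, other scalings, filters and thresholds, sample weights, log2(TPM + 1) and log2(TPM + 0.1), summed gene copies and leaving out each sample. Scripts were tested on simulated data. Members left out by the filter were tested by exact permutation of CPM.

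The genes and lists were chosen with earlier results of these data known. Values by sample are given for members called with CIX or in the interaction (up to 8 per comparison), the 5 called members furthest in each direction between the untreated lines, and Slc2a1, Hk2, Ldha, Pdk1, Hif1a, Egln3, Vegfa and Bnip3, and, added after their values were seen, for other members that the text singles out. Of the other lists, the 3 called genes furthest in each direction are named. P-values measure the spread between replicates and cover no systematic error of the quantification.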

Additional observations from a re-analysis of the deposited data

Results flagged for a closer look

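In 4 of 141 groups of 4 samples, 1 sample lay far from the other 3 by Dixon's criterion, which chance alone gives in about 1 of 20 groups. Egln3 was at 144 CPM in 4T1 CIX sample 4 and at 59.0 to 67.8 CPM in the others. In the same sample Eno1 was at 1010 CPM, against 687 to 727 CPM. Pfkfb4 was at 28.7 CPM in 4T1 CIX sample 16 and at 37.5 to 38.2 CPM in the others. For Aldoc, 67NR vehicle sample 9 held 1.62 CPM and the others 0.41 to 0.53 CPM. The CIX response differed between the lines for Slc2a1, by -0.76 on the log2 scale (4T1 minus 67NR), and for Slc16a1, by -1.04, both by the interaction test. What set these samples and responses apart was not tested.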

How the results depend on the processing

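The 1 member called with CIX in 4T1 became 16 at an adjusted p below 0.05, 12 with DESeq2 and with sample quality weights, 9 in a common fit of all 16 samples, 3 with library size alone, log2(TPM + 1) or log2(TPM + 0.1) (8.94%, 8.67% and 8.43% of all genes), 2 with copies summed (9.36%), and 0 without 4T1 vehicle samples 3 and 11 (an alternative chosen after seeing the data), where 0.986% of all genes passed and 21 members had an unadjusted p below 0.05. The 1 called in 67NR became 10 at 0.05 and 6 with DESeq2. The 2 with a different response became 12 at 0.05, 8 with sample weights, 5 with DESeq2 and 0 with no filter, where 3.46% of all genes passed and 18 members had an unadjusted p below 0.05. Leaving out 1 sample gave 0 to 5, 0 to 1, 0 to 6 and, for the untreated lines (20 called), 18 to 22, and in the 6, 7 and 6 fits without a call at least 11 members had an unadjusted p below 0.05. The share of all genes with an unadjusted p below 0.05 was not computed for these alternatives. Such counts therefore do not set the members apart. The cause of the differences in calls was not tested. In none of the 3048 alternative values of single members did a called direction turn. Over all genes, the share of CIX calls in 4T1 that were higher was 57.3%, and 45.7% with log2(TPM + 1). All genes called numbered 1089 with CIX in 4T1 (3096 with DESeq2, 2679 in the common fit, 2523 with sample weights, 269 to 975 leaving out 1 sample, 115 without samples 3 and 11), 45 in 67NR (1038, 151 and 247, and 27 on either TPM scale) and 991 in the interaction (1980 with DESeq2, 1916 with sample weights, 652 to 1046 leaving out 1 sample). No paired analysis was made, because the groups share no replicate numbers in the labels. The labels do not say whether consecutive sample numbers mark a shared culture or day, and all tests treated the samples as unpaired. Depth limits Epas1, which had at most 5.2 estimated counts in any sample.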
